A study of Caenorhabditis elegans with 2 samples.

Results

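The genes described here encode the factors that start and extend protein synthesis and the enzymes that charge tRNAs in Caenorhabditis elegans. The set was named with earlier results of these data known, and its members were taken by symbol. These were protein-coding genes with symbols starting eif-, eef-, ife-, iff-, ifg-, iffb- or inf-, and those made of a letter, ars- and a number. This gave 73 of 19973 nuclear protein-coding genes, of which 33 were grouped as initiation factors, 8 as elongation factors with eIF5A, and 32 as aminoacyl-tRNA synthetases. Binding of CEH-39, a ONECUT homeobox protein, was mapped by chromatin immunoprecipitation and sequencing in mixed-stage, mixed-sex embryos, in 1 group of 2 biological replicates. Both came from strain OP169, unc-119(ed3) III; wgIs169, whose integrated transgene supplies an eGFP-tagged CEH-39, so no library without the tag was compared. Whole embryos were used, so the cells in which a site was bound cannot be told. A gene is called bound where the summit of a peak in the authors' list thresholded by the irreproducible discovery rate (IDR, 1244 peaks) fell inside a window running from 1000 bp before to 200 bp after any of its transcript starts. The signal value is the authors' own peak score, of unstated scale, and read depth is unknown.

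In an initiating ribosome, eIF2 brings the initiator tRNA, eIF3 scaffolds the small subunit, and eIF4E, eIF4G and eIF4A bring in the capped mRNA. eEF1A then delivers each aminoacyl-tRNA, eEF2 moves the ribosome along, and eIF5A helps it past difficult stretches. The synthetases join each amino acid to its tRNA. These genes are used by every growing cell, and many have an additional copy in the worm for a tissue or for the mitochondrion.

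The sequences under the summits show which short words the peaks held. The 101 bases centred on the summit are printed for 8 of the bound genes, from the RefSeq copy of WBcel235, on the coding strand of the gene and in lower case. They were picked to show some of the strongest peaks and examples of each role, and the eef-2 window is not among them. Capitals mark, on either strand, ATCGAT and the related ATTGAT, then the hexamers ACGCAG as well as GAGCGC, next ACGCGC along with GAGAGA, the longer word GCAAACAC, and a run of 16 bases that the eef-1A.1 peak shares with the eef-2 peak.
iff-2, chrII:8561380-8561480, minus strand: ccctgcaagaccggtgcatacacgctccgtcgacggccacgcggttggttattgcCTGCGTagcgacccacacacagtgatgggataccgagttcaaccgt
eef-1A.1, chrIII:6972056-6972156, minus strand: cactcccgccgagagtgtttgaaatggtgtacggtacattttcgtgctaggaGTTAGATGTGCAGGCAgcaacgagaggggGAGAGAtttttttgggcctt
eef-1A.2, chrX:7823251-7823351, plus strand: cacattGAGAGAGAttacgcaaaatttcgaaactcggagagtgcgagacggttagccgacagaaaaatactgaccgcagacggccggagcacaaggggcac
ife-2, chrX:382806-382906, minus strand: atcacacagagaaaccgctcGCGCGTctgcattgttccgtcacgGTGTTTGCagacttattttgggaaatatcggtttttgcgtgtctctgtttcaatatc
eif-3.B, chrII:14795106-14795206, plus strand: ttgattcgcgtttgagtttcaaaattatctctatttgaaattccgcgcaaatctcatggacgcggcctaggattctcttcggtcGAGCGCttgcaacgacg
eif-1.A, chrIV:4810526-4810626, plus strand: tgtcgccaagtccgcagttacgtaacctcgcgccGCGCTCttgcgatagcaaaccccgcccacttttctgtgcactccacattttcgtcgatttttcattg
ears-2, chrIV:390451-390551, minus strand: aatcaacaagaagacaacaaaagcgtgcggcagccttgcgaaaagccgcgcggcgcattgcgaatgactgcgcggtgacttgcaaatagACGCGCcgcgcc
mars-1, chrIV:11635756-11635856, minus strand: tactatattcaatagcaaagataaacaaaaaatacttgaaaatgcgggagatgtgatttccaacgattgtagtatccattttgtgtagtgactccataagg

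Across the 73 genes, 20 were bound, or 27.4% (95% exact binomial interval 17.6 to 39.1%, which covers counting error only). Over all protein-coding genes the share was 6.46%. By role the counts were as follows. Of the 33 initiation factors 12 were bound, or 36.4% (interval 20.4 to 54.9%). Of the 8 genes for elongation factors and eIF5A, 4 were bound (interval 15.7 to 84.3%). Of the 32 synthetases 4 were bound, or 12.5% (interval 3.51 to 29.0%), an interval that includes the share of all genes and overlaps that of the initiation factors. With replicate 2 alone the shares of these 2 roles were close, 21.2% of initiation factors and 18.8% of synthetases. The 20 bound genes held 21 distinct IDR peaks, since eif-2Bgamma had a pair. The median signal of these peaks was 103, close to the 108 of all IDR peaks. No test was run on these shares, because the set was named with earlier results of the same data known.

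**Figure D1:**
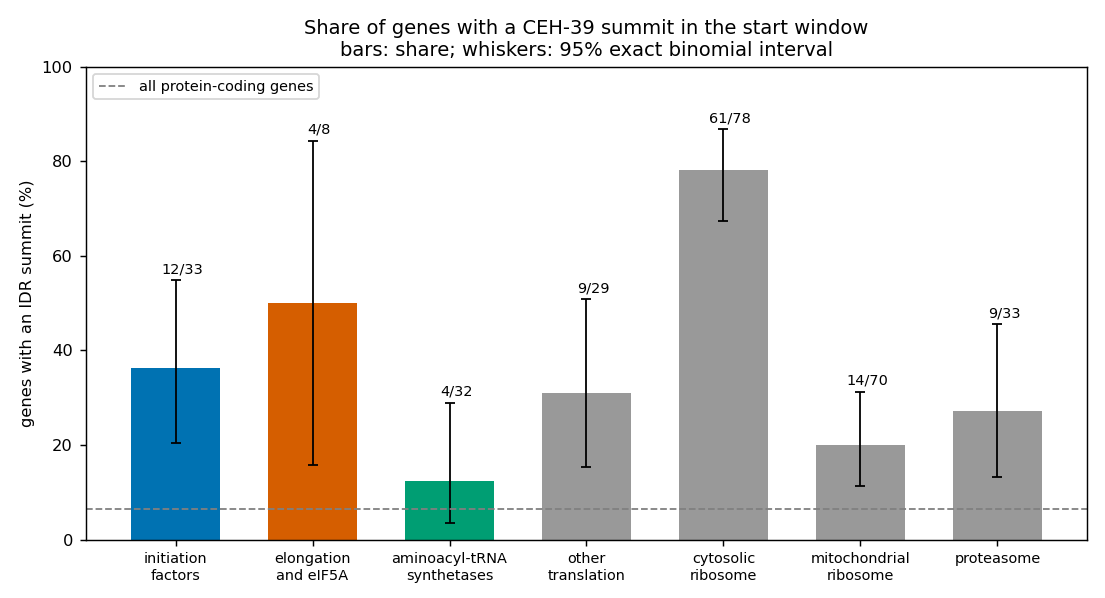
Share of genes with an IDR summit in the start window, in percent, for the 3 roles, for other translation genes and for 3 further gene lists; whiskers are 95% exact binomial intervals and the dashed line is the 6.46% of all protein-coding genes. The synthetase interval crosses the line, and the cytosolic ribosome bar, 61 of 78 genes, is the tallest.

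The bound elongation genes had the strongest member peaks. The strongest of all lay at iff-2, an eIF5A gene (chromosome II, 8561328 to 8561536). Its signal value was 384, rank 16 of 1244, and its summit lay 63 bp upstream of the start. Overlapping peaks had signal values of 294 in replicate 1 and 89.1 in replicate 2, on each list's own scale, and ranked 20 and 23, so both libraries placed it near the top.

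The eEF1A genes, which encode the factor that carries aminoacyl-tRNA to the ribosome, were both bound at similar strength. The eef-1A.1 peak (chromosome III, 6972016 to 6972191) had a signal value of 308 and ranked 48 in replicate 1 and 43 in replicate 2. The eef-1A.2 peak (chromosome X, 7823193 to 7823374) had a signal value of 290.3 and ranked 62 and 37. The distance from summit to start was 394 bp at eef-1A.1 and 353 bp at eef-1A.2, and the longest run shared by both 101-base summit windows was 8 bases. The coding sequences of this pair are near copies, but every 36-base stretch of both peaks occurs once in the genome, so reads of that length could be placed.

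The gene for eEF2, the translocation factor, completed the bound elongation genes. The eef-2 peak (chromosome I, 9163452 to 9163572) had a signal value of 214, its summit was 11 bp upstream of the start, and it ranked 139 in replicate 1 and 135 in replicate 2. The lowest of these 4 signal values, 214, exceeded the highest among the initiation factors and synthetases, 187. The other 4 genes of the group were not bound. eef-1B.1 and eef-1B.2, which encode exchange factors that recharge eEF1A with GTP, had relaxed pooled peaks at ranks 3590 and 6894 of 30000. eef-1G, the gamma subunit gene, had no relaxed summit in its window in the pooled list or in either replicate.

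The second eIF5A gene, iff-1, is known for its role in the germ line and fell just short of the IDR list. Its strongest pooled peak had a signal value of 75.0 at rank 1287, where the lowest IDR peak had 76.5. It ranked 1119 in replicate 1 and 2308 in replicate 2. Its signal values in the replicates were 65.3 and 18.7, against 294 and 89.1 at iff-2, so iff-2 was higher in both libraries.

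**Figure D2:**
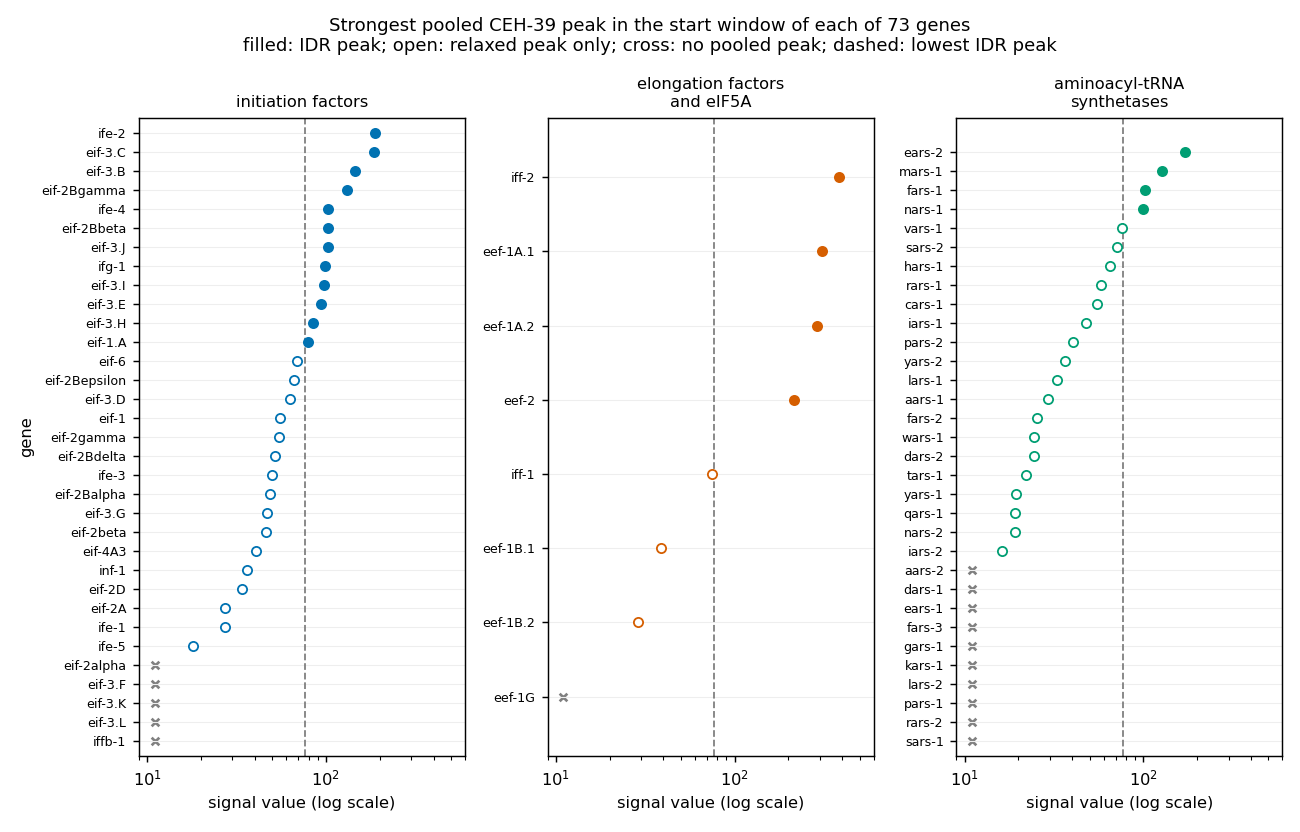
Signal value of the strongest pooled peak in the start window of each of the 73 genes, on a log axis, in 3 panels by role. Filled points have an IDR peak, open points a relaxed peak only, and crosses no pooled peak. The 4 bound elongation genes, from 214 to 384, lie to the right of every point in the other panels.

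Among the initiation factors, the strongest peaks lay at ife-2, eif-3.C and eif-3.B. ife-2, which encodes an eIF4E homologue that binds the mRNA cap, had the strongest of these (chromosome X, 382831 to 382940). Its signal value was 187, its summit lay 147 bp upstream, and it ranked 161 in replicate 1 and 321 in replicate 2. ife-4, another eIF4E homologue, had a weaker peak with a signal value of 103 (chromosome X, 1103763 to 1104112), ranks 844 and 651, and a summit 274 bp upstream. The remaining 3 eIF4E genes were not bound. ife-3, ife-1 and ife-5 had pooled relaxed peaks at ranks 2522, 7989 and 21946.

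ifg-1, which encodes the eIF4G scaffold, had a peak of signal value 99.0 with ranks 894 and 561. That summit lay 627 bp upstream of ifg-1 but 21 bp inside the divergent neighbour M110.3, in its 5′ UTR. inf-1, the eIF4A helicase gene, was not bound, with its strongest pooled peak at rank 4152.

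Of the 11 eIF3 genes, 6 were bound: eif-3.B, eif-3.C, eif-3.E, eif-3.H, eif-3.I and eif-3.J. eif-3.C and eif-3.B, which encode core subunits, had signal values of 185 and 145, with summits 242 and 248 bp upstream. The eif-3.C peak ranked 358 in replicate 1 and 63 in replicate 2, and the eif-3.B peak 373 and 411. The other 4 had signal values from 84.5 to 102, and ranks from 731 to 813 in replicate 1. In replicate 2 the eif-3.J, eif-3.I and eif-3.E peaks ranked 4529, 7886 and 3769, and no relaxed peak overlapped the eif-3.H peak. All 4 thus ranked far lower in replicate 2 than in replicate 1, or had no peak there. The unbound eif-3.D, by contrast, ranked 2699 in replicate 1 and 486 in replicate 2, with a pooled signal value of 62.7. eif-3.F, eif-3.K and eif-3.L had no pooled relaxed summit in their windows.

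The eIF2 subunits, which carry the initiator tRNA, were not bound in any of 3 cases, while 2 of 5 genes of their exchange factor eIF2B were. eif-2Bgamma had a peak 932 bp upstream with a signal value of 131, inside an intron of the same-strand neighbour C15F1.5, and another 134 bp upstream with 76.8. The first ranked 534 and 595 in the replicates and the second 1144 and 2299. The first was also the only one of the 21 peaks with repeated sequence: 75.9% of its 36-base stretches occur once in the genome. eif-2Bbeta had a signal value of 103 and ranks 788 and 1970. eif-2alpha had no pooled relaxed summit in its window, but an IDR summit of signal value 98.6 lay 1790 bp upstream. eif-2gamma and eif-2beta had pooled ranks of 2175 and 2784.

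Of the remaining initiation genes only eif-1.A, whose product works in start codon selection, was bound, near the foot of the list. Its signal value was 79.0 (chromosome IV, 4810401 to 4810750), with ranks 1011 and 4257. eif-6, whose product keeps free large subunits apart from small ones, and eif-2Bepsilon stood just outside the list with pooled signal values of 68.5 and 66.0. eif-6 ranked 2055 in replicate 1 and 1315 in replicate 2. eif-2Bepsilon ranked 1082 in replicate 1 and had no replicate 2 summit in its window. In the pooled list eif-1 ranked 2142, eif-4A3, a helicase gene of the exon junction complex, 3352, and iffb-1, the eIF5B gene, had no summit in its window.

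The bound synthetase genes were ears-2, mars-1, fars-1 and nars-1, for glutamate, methionine, phenylalanine and asparagine. ears-2 had the strongest peak (chromosome IV, 390326 to 390675), with a signal value of 170.3, ranks 226 and 352, and a summit 33 bp upstream. mars-1 had a signal value of 128 and ranks 677 and 136. The peaks of fars-1 and nars-1 ranked far apart in the replicates. The fars-1 peak had a signal value of 102, ranks 558 and 11811, and its summit 925 bp upstream, in the 3′ UTR of T08B2.15. The nars-1 peak had a signal value of 99.1 and ranks 2088 and 85.

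Of the 28 unbound synthetase genes 10 had no pooled relaxed summit in the window, against 5 of 21 unbound initiation genes and 1 of 4 unbound elongation genes. Some of these had a summit in a replicate list, such as kars-1, for lysine, at rank 1314 in replicate 2. Genes without a summit in the pooled list or either replicate numbered 3 of 32 synthetases (fars-3, pars-1 and rars-2), 3 of 33 initiation factors (eif-2alpha, eif-3.F and eif-3.L) and 1 of 8 elongation genes (eef-1G). Counting the pooled relaxed list alone, 57 of the 73 members, or 78.1%, had a summit in the window, against 43.7% of all protein-coding genes. Just outside the IDR list stood vars-1, for valine, with a pooled signal value of 76.0 at rank 1259, and sars-2, for serine, with 71.3 at rank 1428. The strongest vars-1 summits ranked 971 in replicate 1, 101 bp upstream of the start, and 929 in replicate 2, 72 bp downstream of it. sars-2 ranked 1373 in replicate 1 and 7238 in replicate 2. iars-2 had IDR summits beyond the window, the stronger 1772 bp upstream with a signal value of 153.

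Fewer IDR peaks had a strong counterpart in replicate 2 than in replicate 1, for the members as for the whole list. All 21 member peaks were overlapped by a replicate 1 peak with a q-value under 0.05, against 99.5% of all IDR peaks. In replicate 2 this held for 13, or 61.9%, against 47.5%. Over the whole relaxed lists, 3958 peaks in replicate 1 and 790 in replicate 2 passed that threshold. By rank, 20 of the 21, or 95.2%, lay among the 1244 strongest peaks of replicate 1, against 88.9% of all IDR peaks. In replicate 2 it was 13, or 61.9%, against 57.5%, and 12 lay among both, or 57.1% against 49.2%.

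**Figure D3:**
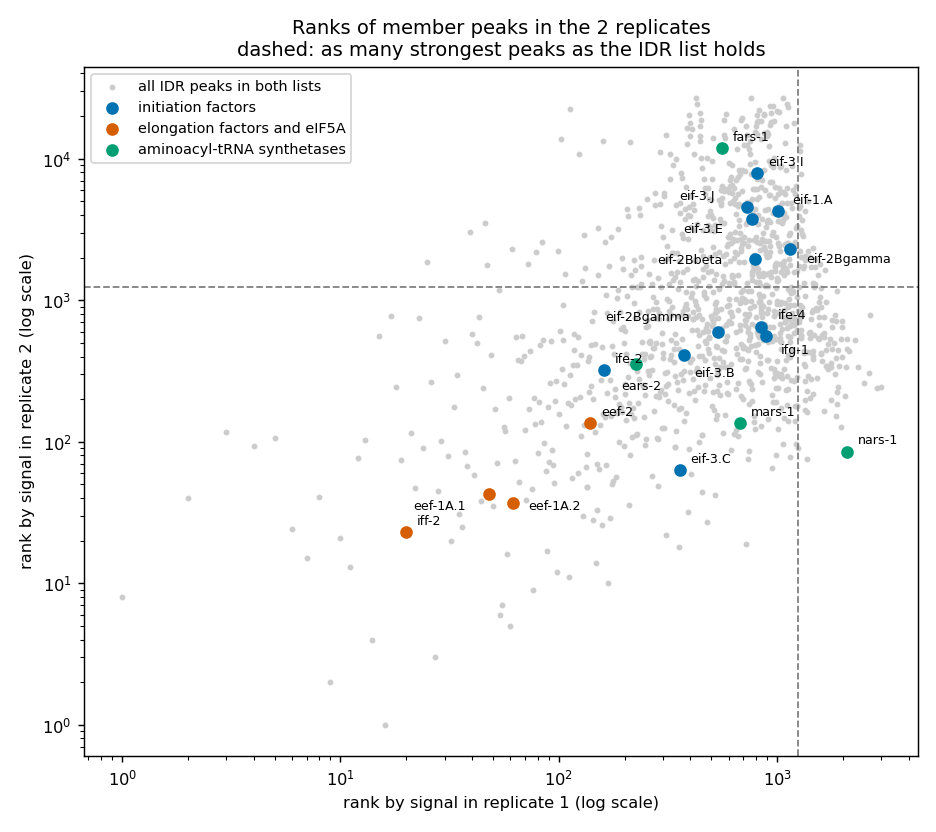
Rank by signal value of each member peak in replicate 1 (horizontal) and replicate 2 (vertical), on log axes, over all IDR peaks in grey; dashed lines stand at rank 1244. The eif-3.H peak has no replicate 2 rank and is not drawn. The elongation genes lie at the lower left, between ranks 20 and 139 in both lists, while 7 peaks lie above the horizontal line.

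With the 1244 strongest peaks of replicate 1 alone, 22 members were bound, or 30.1%, against 6.43% of all genes. With those of replicate 2 alone, 17 were bound, or 23.3%, against 5.58%. Without replicate 1 the initiation factors fell to 7 of 33, as 6 of the bound genes were lost (eif-1.A, eif-2Bbeta, eif-3.E, eif-3.H, eif-3.I and eif-3.J) and eif-3.D was gained. The elongation count was 5 with replicate 1 alone, which added iff-1, and 4 with replicate 2 alone. The synthetase count was 4 and 6.

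A longer cut of the peak list holds more bound genes by construction, for the members as for all genes. In the stronger part of the IDR list, 622 peaks, 10 members were bound, or 13.7%, against 3.52% of all genes, and these included all 4 bound elongation genes. In the 2488 strongest pooled peaks 32 were bound, or 43.8%, against 11.7%. With a window of 500 bp upstream 17 were bound against 5.34% of all genes, and with 2000 bp 22 against 8.3%. The outermost start of each gene gave 20 against 6.17%, any overlap of the peak 20 against 6.88%, and every transcript type 20 against 6.48%.

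Member summits lay upstream of the start in all 21 cases, from 11 to 937 bp and at a median of 274 bp. The window reaches 1000 bp upstream but only 200 bp downstream, so it favours upstream summits by construction. By annotation 17 summits were intergenic, 2 in a 3′ UTR, 1 in a 5′ UTR and 1 in an intron, in each case of a neighbouring gene. These positions are not set here beside those of all IDR peaks, so they are not shown to be particular to the members. Of the 21 peaks 13, or 61.9%, also lay in the start window of another protein-coding gene, against 38.7% of the 931 IDR peaks in any start window. For 6 of them another gene's start was closer. These were the peaks of eef-1A.1, with rfc-4 at 147 bp, eif-2Bbeta, eif-3.H, fars-1, ifg-1 and nars-1. Counting only the gene whose start was closest, 14 members were bound, or 19.2%, against 4.53% of all genes, and the synthetases fell to 2 of 32, ears-2 and mars-1. The nearest tRNA gene lay at least 14028 bp from every member summit.

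**Figure D4:**
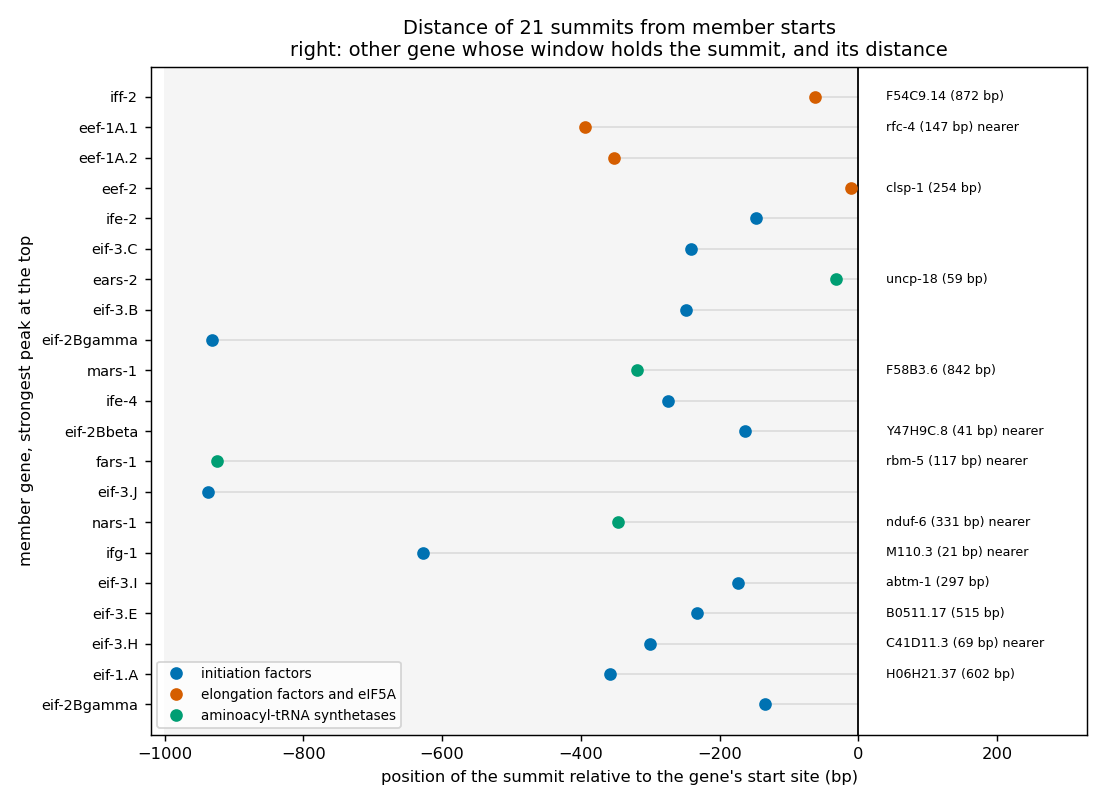
Position of each of the 21 summits relative to the start site of the member gene, in bp, from the strongest peak at the top to the weakest. Names on the right give another gene whose window holds the same summit, with its distance, marked where it is nearer. All summits lie left of the start, 3 of them at 925 bp or farther.

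The share bound differed between arrangements of the neighbouring genes. In worms many genes sit in operons, close behind a gene on the same strand and transcribed from the promoter of the first gene. Of the 73 members 19 had their closest upstream protein-coding gene on the same strand and within 500 bp or overlapping, and 2 of these were bound, eif-3.C and eif-2Bgamma. Of 33 with an opposite-strand neighbour within 1000 bp or overlapping, 12 were bound, or 36.4%, and of the other 21, 6 were bound, or 28.6%. Over all protein-coding genes these classes were bound in 4.7%, 15.1% and 3.93% of cases. Synthetases had 11 of 32 genes in the same-strand class, with none bound, against 7 of 33 initiation factors. Among genes with a close opposite-strand neighbour, 3 of 12 synthetases and 6 of 15 initiation factors were bound. The distances defining the classes were chosen after the data were seen, and their part in the difference between roles was not tested.

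By chromosome, all 3 members on X were bound: eef-1A.2, ife-2 and ife-4. On chromosome I 9 of 21 members were bound, on II 4 of 17, on III 1 of 14, on IV 3 of 10 and on V 0 of 8. Over all protein-coding genes the shares were 5.6% on X, 9.35% on I, 6.12% on II, 10.2% on III, 6.4% on IV and 3.56% on V.

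Short sequences within 50 bp of the summit gave a mixed picture. ATCGAT, the core recognised by ONECUT proteins, lay in 1 of 21 member windows, that of fars-1, against 17.4% of all IDR windows. The related ATTGAT lay in 2, or 9.52%, against 5.87%. ACGCAG lay at iff-2 and ife-4 only, 9.52% against 19.5%. GAGCGC was present in 5, or 23.8%, against 17.1%, and ACGCGC in 7, or 33.3%, against 16.4%. Either of this last pair, whose matches can overlap, was in 11 of 21 windows, or 52.4%, against 28.1%. GAGAGA was in 3, those of eef-1A.1, eef-1A.2 and eif-2Bbeta, or 14.3% against 25.3%. None of the 6 hexamers lay in 5 member windows, or 23.8% against 30.7%, and the mars-1 window printed above is an example.

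The background for these words was measured on both strands in windows of the same length. In windows 350 bp to either side of all IDR summits, the shares were 5.95% for ATCGAT, 11.6% for ATTGAT, 1.81% for ACGCAG, 1.77% for GAGCGC, 1.09% for ACGCGC and 5.79% for GAGAGA. At 274 bp upstream of all protein-coding genes they were 3.63%, 10.8%, 2.54%, 1.82%, 2.14% and 6.16% in the same order. With 21 windows, a single window moves a share by 4.76%. G and C made up 46.5% of the median member window and 47.5% of the median IDR window.

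Other genes of translation outside the named families were read from a list of 31 symbols, 29 of which matched a gene name. Of these 9 were bound, or 31%. The strongest peak lay at ifet-1, which encodes an eIF4E-binding repressor, with a signal value of 226 and ranks 108 and 129 in the replicates. Both poly(A)-binding protein genes were bound, pab-1 (155) with ranks 221 and 1929 and pab-2 (86.2) with ranks 1537 and 538. The others were larp-1 (123), gcn-1 (116), pek-1 (112), a kinase gene for eIF2 alpha, abcf-2 (112), cgh-1 (90.6), an RNA helicase gene, and rack-1 (89.8), which encodes a small-subunit protein. Counting only the gene whose start was closest, ifet-1, pab-1, larp-1, abcf-2 and cgh-1 were no longer bound. With replicate 2 alone pab-1, gcn-1 and cgh-1 were lost, and with replicate 1 alone pab-2. With the outermost start pab-1 was lost. The cgh-1 summit lay 793 bp upstream and its peak ranked 7742 in replicate 2. The release factor genes erfa-1 and erfa-3, the recycling factor gene abce-1 and the mitochondrial genes tufm-1, tufm-2, tsfm-1, gfm-1 and mrrf-1 were not bound.

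Beside these, 61 of 78 cytosolic ribosomal protein genes were bound, or 78.2%, with a median peak signal of 155. Mitochondrial ribosomal protein genes had 14 of 70 bound, or 20%, with a median of 100.2, and proteasome subunit genes 9 of 33, or 27.3%, with 93.1. The initiation share of 36.4% lay below that of the cytosolic ribosome, while its interval overlapped those of the other lists. The interval of the 8 elongation genes overlapped every list. These intervals cover counting error only. The lists were chosen with earlier results of these data known, so overlap or its absence cannot decide whether lists differ. No test was made of these differences.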

How the data were processed

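Peaks of eGFP-CEH-39 ChIP-seq from 2 biological replicates were read from the authors' deposited narrowPeak lists in ce11: the IDR list of 1244 peaks, the pooled relaxed list of 30000, and the relaxed lists of replicate 1 (30000) and replicate 2 (27014). Per the deposited description files, relaxed lists were called with a control and include background, and the IDR list was derived from them. The aligner and peak caller were not given in the sources used here. Each deposited signal value was used as given to rank and describe peaks within a list, and the deposited −log10 q-value to count peaks with a q-value under 0.05. No counts of reads were used, so depth is unknown. The labels name the replicates as biological.

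Gene models and starts came from Ensembl release 115 of WBcel235, the assembly that ce11 names, using transcripts typed as protein-coding on nuclear chromosomes, and sequence from the RefSeq copy of that assembly. The replicate rank of a member peak is that of the strongest replicate peak overlapping it. For an unbound member it is that of the strongest replicate peak with its summit in the start window. Those summits need not lie at the same position in both replicates. Named genes were every bound member, unbound members with an IDR summit within 2000 bp upstream, the 5 unbound members with the strongest pooled peak, and every bound gene of the list of other translation genes. Further unbound members are named to complete a complex or family and were chosen after their values were seen. The members, lists and hexamers were chosen with earlier results of these data known; GCAAACAC and the shared run of 16 bases were picked from the member windows. No test was run, since there is 1 group. The functions were tested on simulated data. Python 3.11.15, numpy 2.4.6, pandas 2.3.3 and scipy 1.17.1 were used.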

Additional observations from a re-analysis of the deposited data

How the results depend on the processing

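Of the 20 bound members, 9 were bound under all 10 other settings (ears-2, eef-1A.2, eef-2, eif-2Bgamma, eif-3.B, eif-3.C, ife-2, iff-2 and mars-1), 1 of which, every transcript type, was added after seeing the data. The count of bound members ranged from 17 to 22 with a single replicate and was 10 in the stronger part of the IDR list and 32 in the 2488 strongest pooled peaks. Initiation factors numbered 13 or 7 with a single replicate and 4 in the stronger part. Synthetases numbered 4 or 6 with a single replicate, 2 in the stronger part, 9 in the 2488 strongest pooled peaks and 2 with the nearest start only. Elongation genes numbered 5 or 4 with a single replicate, 5 in the 2488 strongest pooled peaks, 3 with the nearest start only, which drops eef-1A.1, and 4 under the others. The median signal was 82.4 in replicate 1 and 33.8 in replicate 2, each on the scale of its own list, and 186 in the stronger part of the IDR list, which by construction holds higher values. The median summit lay upstream of the start under every setting, in windows that all reach farther upstream than downstream. Member peaks with ATCGAT numbered 2 in each replicate alone, 0 in the stronger part, 2 in the 2488 strongest pooled peaks, 0 at 500 bp, 2 at 2000 bp, 0 with the nearest start only, and 0 and 2 within 25 and 100 bp of the summit. Those with ACGCAG numbered 1 in the stronger part. Beyond the settings' own construction, the cause of these changes was not tested. No paired analysis was possible because there is 1 group.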

Other observations

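The run of 16 bases shared by the summit windows of eef-1A.1 and eef-2, GTTAGATGTGCAGGCA on the coding strand of eef-1A.1, was the longest among 210 pairs of member peaks; the next longest was 11 bases, between eif-3.B and eif-3.C, and the median 7. It occurs 4 times in the nuclear genome on both strands, and all 4 copies lie in IDR peaks. The other copies lie in the peaks at the proteasome gene pbs-1 (signal value 106) and the ribosomal protein gene rpl-11.2 (206). The centres of the copies at eef-1A.1, eef-2, pbs-1 and rpl-11.2 stand at -9.5, 11.5, 11.5 and 13.5 bp from the summit along the chromosome. The first 12 bases of the run occur 40 times, 18 of them in the start window of a protein-coding gene, and 9 of those 18 lie in IDR peaks. No copy outside a start window does. Further genes at these 9 peaks include tba-2, which encodes an alpha tubulin, icd-2, wwp-1, the ribosomal protein gene rps-26 and pfd-1, a prefoldin gene. Several of these peaks also lie in the start window of another gene. These genes are rfc-4 at eef-1A.1, clsp-1 at eef-2, K08D12.3 at pbs-1, tmem-107 at rps-26 and F01G4.6 at pfd-1. The run was noticed in these windows and then counted, so the counts are a description. The copies at eef-1A.1 and eef-2, included in both counts, lie in IDR peaks by construction.

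GCAAACAC, also noticed in the member windows, lay within 50 bp of the summit at ife-2, eif-3.I and eif-3.J, 14.3% of member peaks, against 4.82% of all IDR windows, 0.442% of flanking windows and 0.676% of windows 274 bp upstream of all genes.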
